A study of Mus musculus with 6 samples.

Results

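The H3K27ac peaks assigned to 7 genes of the SIX-EYA families were examined in mouse quadriceps, namely Six2, Six4 and Six5, and Eya1, Eya2, Eya3 and Eya4. A peak belonged to the set when the gene with the nearest annotated start site, as the study listed it, was one of the 7, whether the peak lay at a promoter or far from it. This gave 46 of the 46988 peaks listed for control muscle and 36 of the 40721 peaks listed for detrained muscle. The peak lists name 15642 genes in all. Nearness to a start site is an assignment, and no link between a peak and the transcription of the gene was measured.

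SIX-family proteins are homeobox transcription factors that bind a sequence known as the MEF3 element, and EYA proteins are their coactivators, which also carry phosphatase activity. In skeletal muscle the complex acts upstream of the myogenic factors during development and favours the fast, glycolytic fibre programme in the adult. Acetylation of histone H3 at lysine 27 (H3K27ac) marks active promoters and enhancers.

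The study profiled wild-type male mice of the strain labelled C57BL/6 (C57BL/6J in the methods), given or not given running wheels from 8 weeks of age for 4 weeks. Control mice were sedentary, and detrained mice had run voluntarily and were then rested for 72 hours before the quadriceps was taken. Each H3K27ac library came from a single quadriceps of 1 animal, with 2 libraries (C2 and C3 in control, Ex1 and Ex2 in detrained muscle) and 1 input per group. The strain label of the inputs reads C57BL/7 for control and C57BL/8 for detrained muscle.

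The H3K27ac libraries held between 20805019 and 22400894 tags, and the inputs held 10812470 tags in control and 21298438 in detrained muscle. Peaks were called once per group on both libraries together, so the lists themselves have no replicates, and the control list was the longer one with shorter peaks (median 1568 against 1798 bases). Each list had its own normalization, so no test was made between groups, and with 2 libraries against 2 an exact permutation test could give no two-sided p under 0.333. Of 5 muscle fibre markers, 4 had a peak in each list and Tnnt3 had none in either, and their summed tags per 10000000 total tags were 3115 and 3918 in control and 4576 and 4254 in detrained muscle. Within that sum the fast myosin gene Myh4 had 75.1 and 83.5 from 3 control peaks, and 814 and 788 from 1 detrained peak. That detrained peak overlapped a control peak not listed under Myh4, so the fibre sums do not cover the same regions in each group. Without Myh4 the fibre sums of the groups overlapped. Macrophage and leukocyte markers had peaks at 2 of 4 genes in control and 3 of 4 in detrained muscle, with sums of 161 and 126 against 258 and 213, fibro-adipogenic markers (3 of 3 in each list) had 1578 and 1558 against 1838 and 1913, and satellite cell markers (2 of 2 in each list) had 179 and 173 against 227 and 246. Endothelial markers (4 of 4) overlapped between groups, at 2150 and 2506 against 2790 and 2204, Schwann cell markers had a peak at 1 of 3 genes, and neither adipocyte marker had a peak. Among genes of other tissues, Alb and Gfap had no peak, while 1 of 2 liver and 1 of 2 brain genes did. The liver sums were 358 and 359 in control and 396 and 357 in detrained muscle, and the brain sums 64.5 and 70.0 against 42.7 and 51.0. Sums of this size therefore do not by themselves mark a cell type. The part of these shifts in the values below was not tested, and in whole muscle fewer cells of a type and less acetylation per cell cannot be told apart.

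The sequences that bear on these peaks are the promoters with a peak over them and the MEF3 letters in the strongest peaks. RefSeq promoters (GRCm38.p6, the same assembly as mm10) were at hand for 5 of the 7 genes, Six2, Six4, Six5, Eya3 and Eya4. Promoter here means the 250 bases before the start site, printed 5′ to 3′ along the gene, with capitals for any MEF3 core TCAGGTT, E-box CANNTG or MEF2 motif on either strand. The Six2 and Six5 promoters, on chr17:85688255-85688504 (minus strand) and chr7:19094294-19094543 (plus strand), held none of these letters, and the Eya3 promoter, on chr4:132638796-132639045 (plus strand), held 1 E-box. All 3 were richer in G and C than the median promoter (52.4% G or C), with 64.8% at Six2, 62.8% at Six5 and 58.4% at Eya3.
Six2 promoter: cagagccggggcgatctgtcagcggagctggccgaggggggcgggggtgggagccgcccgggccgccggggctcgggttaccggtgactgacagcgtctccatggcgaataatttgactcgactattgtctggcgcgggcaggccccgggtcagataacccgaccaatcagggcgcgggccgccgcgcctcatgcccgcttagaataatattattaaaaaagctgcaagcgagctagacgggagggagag
Six5 promoter: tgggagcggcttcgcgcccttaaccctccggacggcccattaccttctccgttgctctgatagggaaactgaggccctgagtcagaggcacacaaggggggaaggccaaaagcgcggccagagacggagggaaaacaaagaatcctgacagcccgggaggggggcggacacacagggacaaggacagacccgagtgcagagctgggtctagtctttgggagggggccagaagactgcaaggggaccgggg
Eya3 promoter: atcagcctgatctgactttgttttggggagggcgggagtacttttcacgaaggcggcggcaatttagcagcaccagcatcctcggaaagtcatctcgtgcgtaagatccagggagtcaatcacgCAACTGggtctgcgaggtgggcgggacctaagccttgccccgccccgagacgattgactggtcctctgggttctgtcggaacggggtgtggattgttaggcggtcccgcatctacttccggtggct

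Over all 32851 RefSeq promoters of this length, 3.49% held the MEF3 core, 66.2% an E-box and 1.69% the MEF2 motif. Of the 7 promoters of the 5 genes (Six4 and Eya4 have a pair of starts each), 1 held the MEF3 core, that of Six4, 2 held an E-box and 0 held the MEF2 motif. Within whole peaks, MEF3 letters occurred 1.28 times per 10 kb in control peaks of the set against 1.62 in all control peaks, and 1.71 against 1.60 in detrained muscle. These rates lay close to those of all peaks, and a match is a run of letters and not a bound site. The 29 matches over both lists fell at 20 positions, of which 9 lay in a peak of each list. Eya4 held 9 of the 20 positions. The 3 that its long intron 3 peak held in both lists, 1 in its intron 3 peak with the largest decrease, and 1 each in the strongest Eya1 and Six4 peaks are printed on the plus strand of mm10 with the match in capitals.
Eya4 intron 3, chr10:23178629-23178695: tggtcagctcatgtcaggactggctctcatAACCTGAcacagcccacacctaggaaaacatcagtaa
Eya4 intron 3, chr10:23181615-23181681: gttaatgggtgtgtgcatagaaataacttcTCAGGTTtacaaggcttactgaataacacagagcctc
Eya4 intron 3, chr10:23182792-23182858: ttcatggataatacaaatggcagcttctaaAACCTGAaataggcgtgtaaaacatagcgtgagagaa
Eya4 intron 3, chr10:23212102-23212168: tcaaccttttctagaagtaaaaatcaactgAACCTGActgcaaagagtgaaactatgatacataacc
Eya1 intron 1, chr1:14305517-14305583: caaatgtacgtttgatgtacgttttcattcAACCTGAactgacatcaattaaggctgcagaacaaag
Six4 start region, chr12:73113325-73113353: gatctggccgaTCAGGTTtcccccaggcc

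By the annotation of the authors, most peaks of these genes were intronic or intergenic, although several of the strongest intronic ones covered a start site. Of the 46 control peaks, 28 were intronic, 15 intergenic and 2 at annotated promoters, and of the 36 detrained peaks 17 were intronic, 16 intergenic and 1 at a promoter, where all peaks had 11.2% and 12.6% at promoters. Peaks of the set lay farther from start sites than peaks in general, with a median distance of 40.8 kb in control and 49.3 kb in detrained muscle, against 16.3 and 15.0 kb over all peaks. Their density was ordinary, with medians of 25.4 tags per kb of peak per 10000000 total tags in control and 26.3 in detrained muscle, against 27.5 and 30.1 over each whole list. The weakest, a Six2 peak of control muscle, rested on 26 tags (11.8 tags per kb, exact Poisson 95% interval 7.69 to 17.2), and the peak with most tags, in Eya1 intron 1 of control muscle, on 2832 tags (79.3 per kb, interval 76.4 to 82.3). These intervals cover counting error only.

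**Figure D1:**
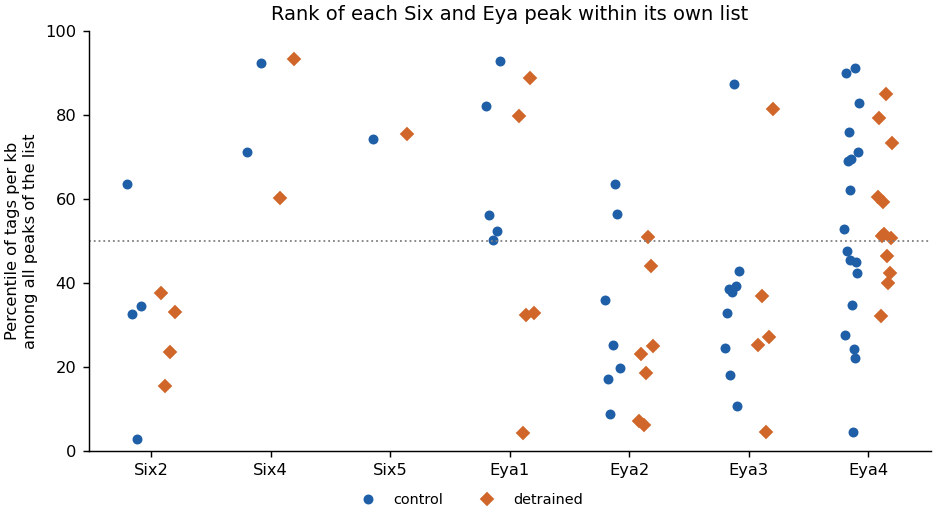
Percentile of each peak's tags per kb among all peaks of its own list (vertical axis, percent) for the 7 genes, with 1 point per peak, circles for control and diamonds for detrained muscle; the dotted line is the list median. Six4, Eya1, Eya3 and Eya4 each have a peak above the 80th percentile in both lists, whereas no Eya2 peak passes 63.5.

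Among the SIX-family genes of the set, Six4 carried the strongest acetylation. Six4, a homeobox factor expressed in developing and adult muscle, lies on chr12:73099609-73114031 (minus strand). Its main peak covered the start of the gene and the start of the neighbouring Mnat1 (chr12:73109787-73114456 in control), and had densities of 71.6 and 84.4 tags per kb in control and 87.8 and 79.4 in detrained muscle. The groups overlapped, with log2 densities of 6.28 ± 0.17 and 6.38 ± 0.10 (mean ± SD, n = 2 libraries per group), at the 92.4 and 93.5 percentile of the control and detrained lists. A peak just past the end of the gene, 15.0 kb from the start, had 32.8 and 49.9 tags per kb in control and 33.7 and 37.4 in detrained muscle, and here the control libraries lay on both sides of the detrained ones. Summed over both peaks, Six4 had 417 and 521 tags per 10000000 total tags in control and 510 and 481 in detrained muscle, which overlapped.

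Six5 had 1 peak in each list, over its start (chr7:19094055-19096687 in control, chr7:19093328-19096089 in detrained muscle). The gene directly follows Dmpk, the kinase gene whose repeat expansion causes myotonic dystrophy, and the longer detrained peak reached into the end of Dmpk. Its density was 45.2 and 43.5 tags per kb in control and 48.8 and 48.8 in detrained muscle. Both detrained libraries lay above both control libraries, by 0.14 on the log2 scale (5.47 ± 0.038 against 5.61 ± 0.00064).

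Six2, known mainly from kidney progenitors, had the weakest peaks by tags per kb among the SIX-family genes of the set. It was the one member with a promoter peak in both lists (chr17:85687503-85689962 in control). Density at that promoter was 32.7 and 37.1 tags per kb in control and 25.2 and 24.9 in detrained muscle. The detrained values were both under the control values, by -0.48 on the log2 scale (5.12 ± 0.13 against 4.65 ± 0.012), and tags per peak were lower too, with a log2 ratio of -0.62. The peak stood at the 63.5 percentile of the control list and the 37.6 percentile of the detrained list, 2 lists whose lengths and median densities differ, so these ranks do not measure a change of the peak. Its shared distal peaks, 112 and 171 kb upstream, overlapped between groups, with log2 ratios of -0.29 and 0.11. A further distal peak was listed in each group alone, at 5.88 tags in control and 26.4 in detrained muscle per 10000000 total tags. The sum over its 4 peaks of each list was 178 and 196 tags in control and 191 and 223 in detrained muscle, so that the sum did not follow the promoter.

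Among the EYA coactivators, Eya1, which has been tied to the fast-fibre programme, had the longest peak of the set in control muscle (chr1:14302610-14310687, 8077 bases, in intron 1 and over the start). Its density was 74.9 and 83.9 tags per kb in control and 70.5 and 69.5 in detrained muscle, lower in both detrained libraries by a log2 ratio of -0.18 (6.31 ± 0.12 against 6.13 ± 0.014). Tags per peak gave -0.20. A second intronic peak, 16.7 kb into the gene, had 25.5 and 32.2 against 22.6 and 23.5 tags per kb, a log2 ratio of -0.31, but its detrained counterpart was longer and held more tags (log2 ratio of tags 0.47). The intron 12 peak, 120 kb from the start, had 54.5 and 56.0 tags per kb in control and 47.2 and 60.5 in detrained muscle, and the groups overlapped. In each list 2 further Eya1 peaks had no counterpart.

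Eya2 had 7 peaks in each list and the lowest density of the EYA genes, with 23.2 tags per kb of listed peak in control and 21.9 in detrained muscle. None of its peaks was annotated to a promoter, and the one nearest to the start, 0.474 kb inside the gene, had 27.4 and 16.9 against 19.6 and 20.4 tags per kb, with detrained libraries between the control ones. Its densest peak, 18.9 kb inside the gene (chr2:165612854-165614909), had 35.9 and 33.9 tags per kb in control and 28.4 and 32.5 in detrained muscle, lower in both detrained libraries by -0.20 (log2). A peak in intron 9, 145 kb from the start, went the other way, with 17.2 and 16.9 against 19.5 and 21.7 tags per kb (log2 ratio 0.27), one of the 3 largest increases of the set, though its detrained counterpart was shorter and held fewer tags (log2 ratio of tags -0.14). Peaks at 14.1 and 139 kb overlapped between groups, with log2 ratios of -0.06 and -0.15.

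Eya3, a widely expressed member of its family, had its strongest peak at the start (chr4:132638444-132639806 in control), annotated as promoter in control and as the first exon in detrained muscle. Density was 68.2 and 61.0 tags per kb in control and 54.9 and 58.5 in detrained muscle, lower in both detrained libraries by -0.19 (log2), while the wider detrained peak held more tags (log2 ratio 0.20). The other shared peaks formed a row upstream of the gene. Of these, the one at 27.4 kb was lower in both detrained libraries (15.8 and 17.5 against 14.1 and 13.02 tags per kb, log2 ratio -0.29), that at 30.5 kb higher (22.4 and 23.5 against 24.02 and 25.4, log2 ratio 0.11), and those at 37.0 and 21.2 kb overlapped. The peak at 37.0 kb, with a log2 ratio of 0.16, was the third largest increase. The detrained peak at 30.5 kb ran over 2 separate control peaks, so its pairing is uncertain. All 3 Eya3 peaks without a detrained counterpart lay in intron 1, between 9.95 and 13.6 kb from the start, with 27.4, 11.8 and 25.1 pooled tags per 10000000.

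Eya4 had the most peaks and the most tags of the 7 genes, with 18 peaks in control and 12 in detrained muscle over and around a gene of 248 kb (chr10:23102962-23350838, minus strand). Its densest peak lay over the start and intron 1 (chr10:23345388-23351720), with 73.6 and 74.7 tags per kb in control and 61.6 and 63.4 in detrained muscle. The detrained values were both under the control values, by -0.25 on the log2 scale (6.21 ± 0.016 against 5.97 ± 0.028), and by -0.37 in tags per peak. The intron 3 peak that holds the first 3 sequences printed above for Eya4 was the longest of the detrained list (8099 bases, against 7192 in control).

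That intron 3 peak, 170 kb from the start, had 72.5 and 69.2 tags per kb in control and 53.4 and 54.0 in detrained muscle. Its log2 ratio was -0.40 (6.15 ± 0.048 against 5.75 ± 0.011), and tags per peak gave -0.23, so it was lower with and without its length. The 3 largest decreases of the set were elsewhere: the intron 3 peak at 138 kb (51.0 and 41.4 against 33.3 and 28.2 tags per kb, log2 ratio -0.58), the Six2 promoter, and an Eya4 peak 138 kb upstream (41.3 and 41.4 against 31.9 and 29.4, log2 ratio -0.44). The first of these depends on length, since the detrained peak ran to 3775 bases against 2304 and its tags were higher (log2 ratio 0.12). Another peak in intron 2, 112 kb from the start, was also lower in both detrained libraries, with a log2 ratio of -0.35.

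The largest increase of the set also lay near Eya4, past the end of the gene and 261 kb from its start (25.6 and 32.4 against 36.8 and 34.9 tags per kb, log2 ratio 0.32). Both detrained libraries were above both control libraries there, and at the peak 54.1 kb upstream (log2 ratio 0.09), while the peaks at 127, -44.8 and -193 kb overlapped. A broad control peak 149 kb from the start (chr10:23198645-23202856) met a detrained peak over 42.9% of its length, too little to count as shared, and its density was 47.6 and 30.4 against 20.7 and 24.9 tags per kb. Between 112 and 170 kb from the start, within introns 2 and 3, control muscle had 7 listed peaks and detrained muscle 5.

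**Figure D2:**
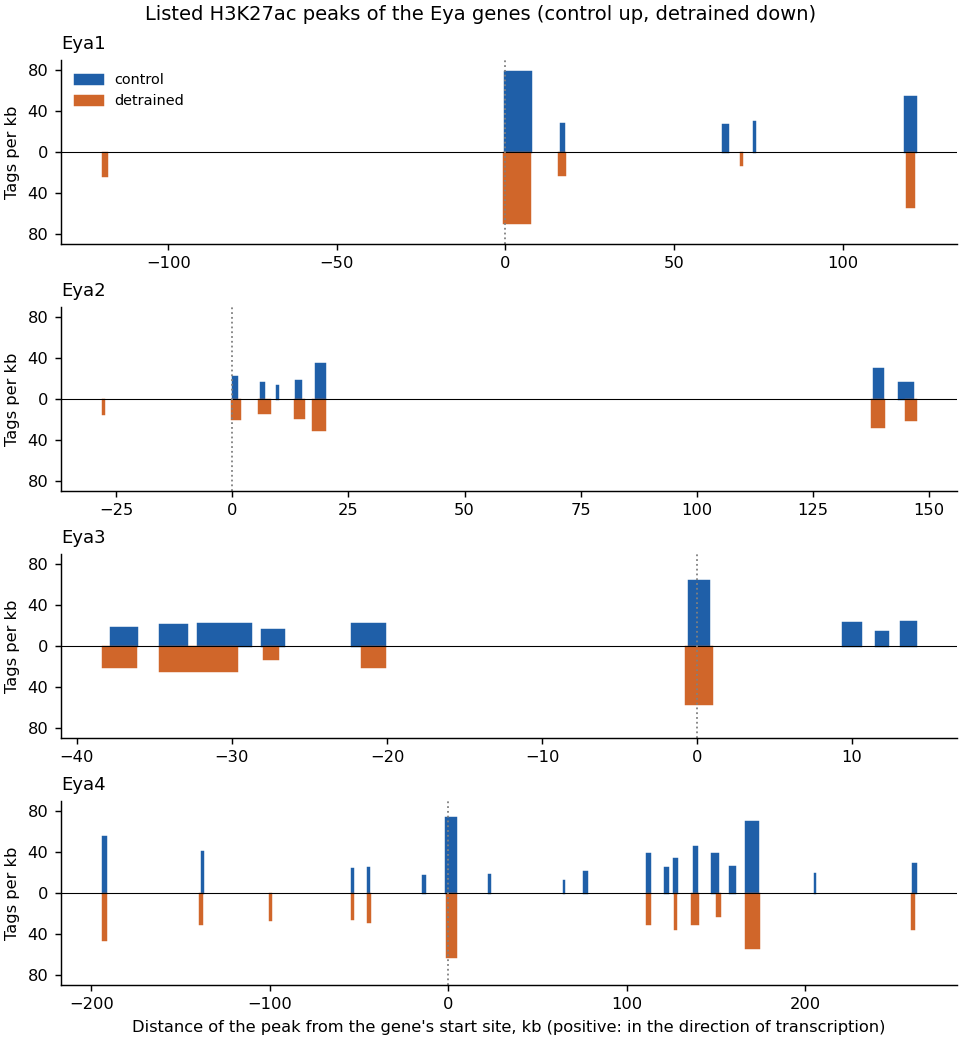
Listed H3K27ac peaks of the 4 Eya genes by distance from the start site (horizontal axis, kb, positive in the direction of transcription; Eya2 measured from its first start). Bars have the width of the peak and the height of its pooled tags per kb per 10000000 total tags, with control muscle drawn upward and detrained muscle downward. The Eya4 peaks at the start and at 170 kb reach 74.1 and 70.9 in control against 62.5 and 53.7 in detrained muscle, and the 3 intron 1 peaks of Eya3 appear on the control side alone.

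The comparison of the lists asks which of these regions stayed acetylated after training and rest. Of the 46 control peaks, 14 (30.4%) overlapped no detrained peak, against 27.9 percent of all control peaks, and of the 36 detrained peaks, 5 (13.9%) overlapped no control peak, against 18 percent of all detrained peaks. These shares lay near those of the whole lists. Of the 14, Eya4 held 7, Eya3 3, Eya1 2, and Eya2 and Six2 1 each, whereas Six4 and Six5 had none in either list. Peaks without a counterpart were weaker than those with one, with a median of 21.1 pooled tags per 10000000 against 61.7 in control. In detrained muscle the medians were 26.4 and 64.2. Over all peaks of each list, those without a counterpart had lower medians, of 14.5 in control and 18.3 in detrained muscle. The surplus of control peaks depended on the filter. Keeping only peaks at least 4-fold over input with an adjusted p under 0.001, a measure that rests on inputs of unequal depth, left 26 in each list, whereas keeping equal numbers of the densest peaks per list left 42 in control and 36 in detrained muscle.

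For density, a control and a detrained peak were taken as shared when each covered 50% or more of the other and neither was paired elsewhere, which gave 29 pairs of the set among 26432. None of the 29 was at least 2-fold apart with libraries that did not overlap, against 0.0757 percent of all shared peaks. Regardless of size, the detrained values were both under the control values at 11 of the 29 (37.9%), against 27.2 percent of all shared peaks, and above both at 5 (17.2%), against 21.3 percent, and the other 13 overlapped. The Eya genes held 10 of the 11 lower pairs, 5 of them at Eya4, and 4 of the 5 higher ones, out of 23 Eya pairs.

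The median log2 ratio, detrained minus control, was -0.15 over the 29 pairs and -0.03 over all shared peaks. By library, the median log2 density of the 29 was 5.03 and 5.02 in control and 4.90 and 4.87 in detrained muscle, whereas over all shared peaks it was 5.25 and 5.33 against 5.29 and 5.24. The detrained libraries thus lay below the control libraries at these peaks and overlapped them over all shared peaks. The pairs are not replicates, and the deposited log2 values are shrunken, which brings the libraries of a group closer together. Detrained peaks were longer in 17 of the 29 pairs (58.6%, against 51.6% of all shared peaks). Without length the median log2 ratio of pooled tags was -0.02, as over all shared peaks (-0.02).

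**Figure D3:**
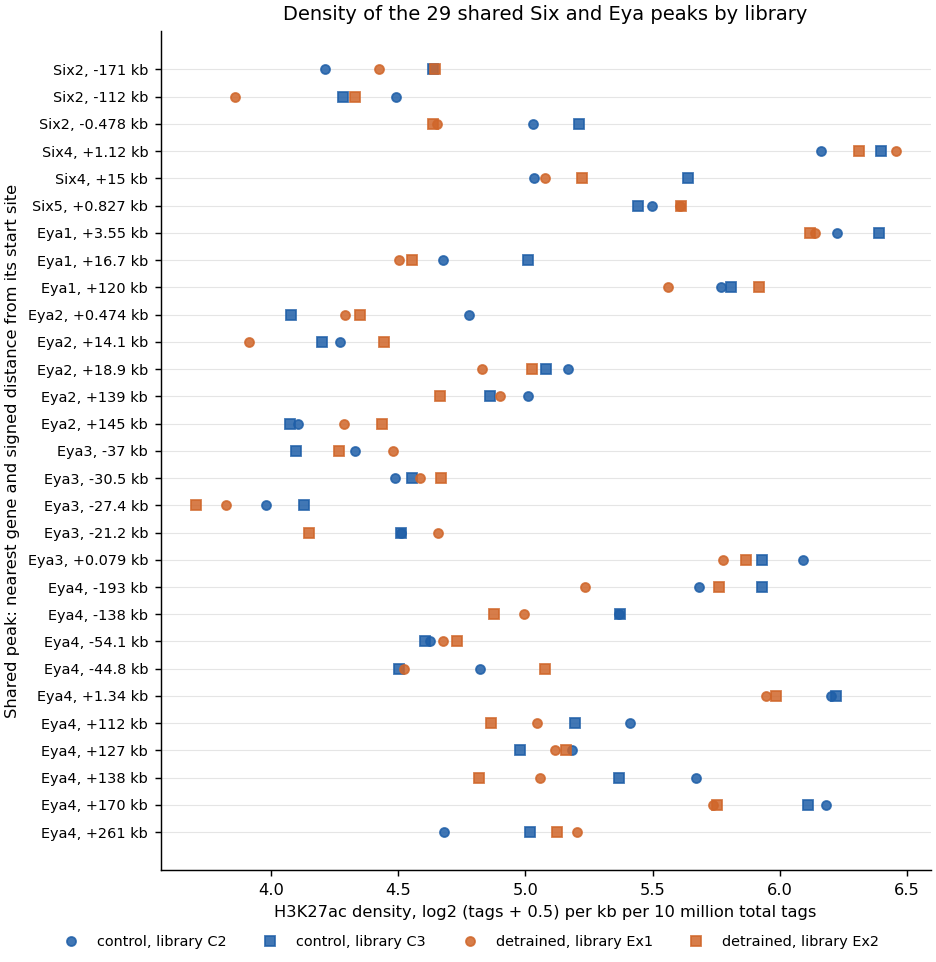
Density of H3K27ac at the 29 shared peaks (horizontal axis, log2 of tags plus 0.5 per kb per 10000000 total tags), 1 row per peak labelled by gene and signed distance from its start, with control libraries in blue and detrained libraries in orange. The detrained points lie left of both control points at 11 peaks and right of both at 5, and the widest gap is at the Eya4 peak at 138 kb, by a log2 ratio of -0.58.

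**Figure D4:**
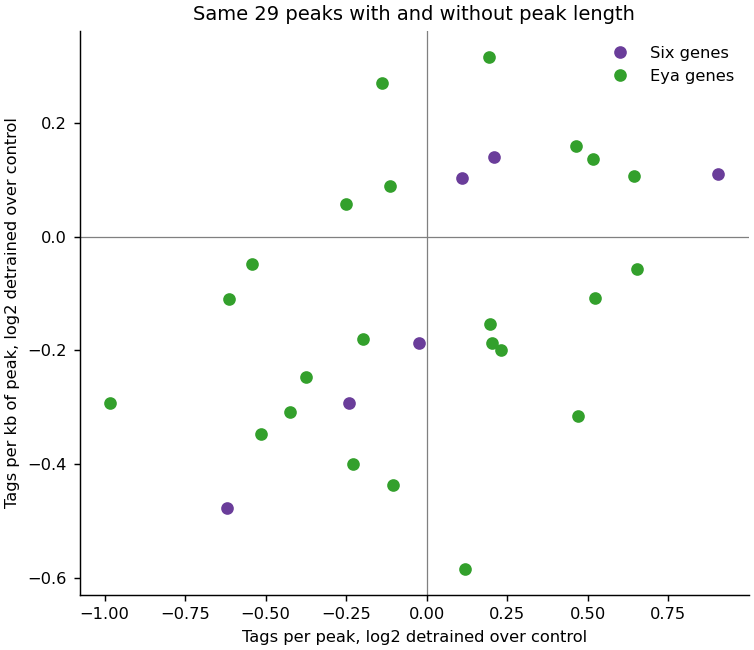
Log2 ratio of detrained over control for the same 29 peaks, by tags per peak (horizontal axis) and by tags per kb of peak (vertical axis), with Six2, Six4 and Six5 in purple and the Eya genes in green. Both measures are below 0 at 12 peaks (41.4%, against 29.4% of all shared peaks) and above 0 at 7. At 10 peaks (34.5%, against 48.1% of all shared peaks) they point in opposite directions, which is the part of the pattern that depends on peak length.

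Summing all listed peaks of a gene takes in those with no counterpart. Eya4 had 2022 and 1890 tags per 10000000 total tags in control and 1372 and 1418 in detrained muscle (1956 ± 93.2 against 1395 ± 32.5, SD, n = 2), a change of -28.7%. The covered length was 43.1 kb in control and 32.8 kb in detrained muscle, and the mean density over it was 45.4 and 42.5 tags per kb, so the covered length differed more than the density. Among genes with a peak, Eya4 stood at the 98.3 percentile of control and the 96.4 percentile of detrained muscle.

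Eya1 came next, with 882 and 963 tags in control and 763 and 786 in detrained muscle, a change of -16.0% over 14.8 and 14.4 kb of listed peak. Eya3 had 383 and 374 against 320 and 314 tags, a change of -16.3% over 15.2 and 11.5 kb, which turned to a log2 ratio of 0.08 when only peaks at least 4-fold over input were kept. For these 3 genes each detrained library was under each control library. Eya2 went the other way, with 278 and 250 against 317 and 338 tags, a change of 24.2% over 11.4 and 15.0 kb of listed peak, while its density over that length was 23.2 and 21.9 tags per kb. Six5 also lay higher in both detrained libraries, at 119 and 114 against 135 and 135 tags, and the sums of Six4 and Six2 overlapped between groups.

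Over all 7 genes the sum was 4278 and 4308 tags in control and 3605 and 3694 in detrained muscle, a log2 ratio of -0.23. It runs over 46 control and 36 detrained peaks called separately, so it mixes covered length with density. The order of the genes by summed tags was Eya4, Eya1, Six4, Eya3, Eya2, Six2 and Six5 in control, and in detrained muscle Eya2 and Eya3 overlapped and changed places.

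**Figure D5:**
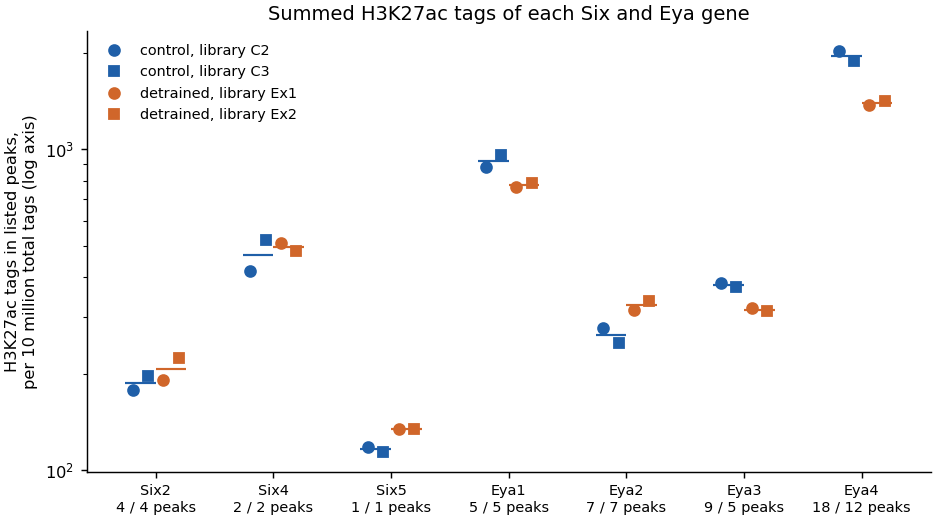
Summed H3K27ac tags in the listed peaks of each gene (vertical axis, per 10000000 total tags, log scale), with 1 point per library, a line at the mean of each group, and the number of control and detrained peaks under each name. Eya4 has 2022 and 1890 tags in control and 1372 and 1418 in detrained muscle, Eya1 and Eya3 also lie lower in both detrained libraries, and Eya2 and Six5 lie higher.

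Of 9 further genes of the network, 8 had a peak in each list, and Six3 had none. Of their 30 shared pairs, 9 had each detrained library under each control library and 4 above (against 27.2 and 21.3 percent of all shared peaks), with a median log2 ratio of -0.06 and no pair 2-fold apart. Tead1, a partner of YAP in muscle, had 2871 and 3045 summed tags in control and 2469 and 2801 in detrained muscle, and Sobp, a protein that binds SIX-family factors, had 965 and 1021 against 807 and 735, and both sums lay lower in detrained muscle. Density over listed peak was 42.9 and 43.5 tags per kb at Tead1 and 49.1 and 44.3 at Sobp. Dach1, a corepressor of the complex, had 459 and 633 against 629 and 419, and the groups overlapped.

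The 4 myogenic factors, bHLH regulators of muscle identity, had 13 peaks in each list and 11 shared pairs, of which 4 had both detrained libraries lower and 2 higher, against the same 27.2 and 21.3 percent (median log2 ratio -0.08). Summed tags overlapped between groups for Myod1 (586 and 708 against 638 and 554), Myog (658 and 719 against 673 and 647) and Myf5 (75.2 and 69.1 against 67.5 and 73.7). Myf6 had 1174 and 1392 in control and 1478 and 1394 in detrained muscle, with both detrained libraries above. Its covered length was 17.1 kb in control and 25.005 kb in detrained muscle, and its density over that length went the other way, at 75.1 and 57.4 tags per kb, with 2 of its 4 shared pairs lower in both detrained libraries and 0 higher.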

How the data were processed

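H3K27ac ChIP-seq of quadriceps gave 2 libraries and 1 input per group. Alignment by the authors was to mm10 with Bowtie (version 1.2 in their processing notes), with unique reads and at most 1 tag per position kept, and HOMER then gave a single peak list for each group from its libraries and input. The deposited signal per peak is the tags of both libraries per 10000000 total tags, and the deposited log2 values per library are regularized values that HOMER wrote for the authors through DESeq2. The authors' fold over input and adjusted p-value were used only to filter peaks. The deposited headers name the control libraries C2 and C3 and the labels number them 1 and 2, so these were assigned to the group only.

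For each library, tags were estimated from the pooled value of the peak, split by library total times 2 raised to the log2 value, and density took 0.5 added tags. No count model was used, and p-values between groups were not computed. The steps were tested on simulated data. Distances in the text run from the start site to which most listed peaks of the gene were assigned, and motifs were searched separately, with overlaps between motifs kept. The 7 genes and all lists were chosen with earlier results of these data known. Named peaks were, per gene, the promoter or nearest peak, the densest, and all shared peaks where 5 or fewer, and over the set the 3 largest increases and decreases, the longest peak of each list and any shared peak called at 2-fold. The 3 genes most like Eya4 were also named, and other peaks and Myh4 are given as examples chosen after their values were seen. Of each gene list, up to 4 genes with most control tags were named, and 1 of these is not reported here. Scripts ran in Python 3.11.15 (pandas 2.3.3 and numpy 2.4.6, with scipy 1.17.1 for intervals and matplotlib 3.10.9 for plots). Alternatives covered the peaks kept, overlap, length, added tags, normalization, input and each library left out.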

Additional observations from a re-analysis of the deposited data

How the results depend on the processing

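For the 29 shared peaks the median log2 ratio stayed below 0 under every alternative tried. It was -0.19 with any overlap, -0.27 with at least 80% of each covered (10 pairs), -0.19 in peaks 4-fold or more over input, -0.13 centred on all shared peaks, -0.10 normalized to tags in listed peaks and -0.12 with input subtracted, but -0.00038 in tags per peak without length (mean of library values), and it ranged from -0.23 to -0.079 when 1 library was left out, without Ex2 and without Ex1. Without length, 10 of the 29 ratios from pooled tags changed sign (34.5%, against 48.1% of all shared peaks). The count of pairs at least 2-fold apart was 0 under each alternative that gives values per library, and was not made from pooled tags. The summed log2 ratio over all 7 genes was -0.18 in peaks 4-fold or more over input, -0.12 within 50 kb, -0.18 normalized to tags in listed peaks and -0.21 centred, and -0.25 to -0.22 with 1 library left out. Of the results with a fixed direction Eya3 reversed, to 0.081, in peaks 4-fold or more over input, where it kept 4 control and 3 detrained peaks, while Eya4 ranged from -0.54 to -0.43, Eya2 from 0.24 to 0.84, and the overlapping sums of Six2 from -0.62 to 0.39 and Six4 from -0.072 to 0.25. Listed peaks were 26 in control after the same filter on fold over input, and 24 and 18 within 50 kb. Peaks without a counterpart were 5 of 26 in control and 6 of 26 in detrained muscle after that filter (against 11.3% and 15.4% over all peaks of each list), 6 of 24 and 1 of 18 within 50 kb (against 25.6% and 16.0%), and 10 of 42 and 5 of 36 with equal numbers of the densest peaks per list (against 19.8% and 20.3%). Of the log2 ratios of single genes and peaks, 383 stayed within the spread between libraries and 48 moved by more, and of the peak counts per gene 31 stayed within 1.5 times and 13 did not. Leaving out a library cannot, by construction, move a ratio beyond this spread. The choices of overlap, distance and fold over input leave the value of a single shared peak unchanged. The count of 383 is therefore no measure of stability. What causes these shifts was not examined further. No paired analysis was possible because numbers in the headers and labels differ for control muscle and no result between groups came from a test.

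Depth limits the weak peaks, the weakest of which rests on 26 tags, and log2 values shrunken by the authors understate the spread between libraries there. Peak borders were set separately in each group, so density and length cannot be told apart from the lists alone.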

Other observations

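The 12 fast-fibre genes tied to SIX-family factors had 65 control and 46 detrained peaks. Of their 32 shared pairs, each detrained library was under each control library at 5 and above at 6 (against 27.2 and 21.3 percent of all shared peaks), with a median log2 ratio of 0.02. Summed tags per 10000000 total tags were 3504 and 4599 in control and 3294 and 3156 in detrained muscle for 2310065F04Rik, a noncoding RNA locus near the fast myosin genes, 2357 and 3243 against 2703 and 2308 for Sox6, a repressor of slow-fibre genes, 1924 and 2619 against 2069 and 1912 for the fast myosin light chain gene Myl1, and 1699 and 2047 against 1985 and 2039 for Tbx15, a fast-fibre transcription factor. The groups overlapped at Sox6, Myl1 and Tbx15, and 2310065F04Rik lay lower in both detrained libraries, over 38.4 kb of listed peak in control and 29.954 kb in detrained muscle, with 105 and 108 tags per kb. Myh4, of the same list and named after its values were seen, had 75.1 and 83.5 against 814 and 788, from 3 control peaks and 1 detrained peak. None of its control peaks overlapped a detrained peak, and its detrained peak overlapped a control peak not listed under Myh4. The Myh4 sums thus cover different regions and do not measure a change at the gene.

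Slow-fibre genes had few peaks, 10 in control and 9 in detrained muscle at 4 of 8 genes in each list. Of 6 shared pairs, 3 had both detrained libraries lower and 1 higher (against the same 27.2 and 21.3 percent), with a median log2 ratio of -0.21. Atp2a2, the slow calcium pump, had 535 and 527 summed tags in control and 554 and 550 in detrained muscle, higher in both detrained libraries, while its density over listed peak was 35.9 and 33.02 tags per kb and 2 of its 4 shared pairs were lower and 1 higher. Myl2 had 49.5 and 37.7 against 47.2 and 49.5, Myl3 had 23.7 and 25.1 against 34.8 and 37.9 with its shared pair lower per kb (log2 ratio -0.36), and Tnni1 had 50.8 and 60.2 in control with no listed peak in detrained muscle. The opposite held for Tnnt1, named after its values were seen, with no listed peak in control and 34.0 and 42.7 tags in detrained muscle.

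By Euclidean distance of log2 summed tags over the 4 libraries, the genes most like Eya4 among 13523 others were Rgl1 (distance 0.11), Dock4 (0.19) and Tgfbr2 (0.23). Rgl1 had 1994 and 1939 tags in control and 1468 and 1445 in detrained muscle.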
